A study of Mus musculus with 8 samples.

Results

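The genes of cyclic GMP (cGMP) signalling were followed in cultured fibroblasts of the mouse heart. The 9 members are the receptors and cyclases Gucy1a1, Gucy1b1, Npr1, Npr2 and Npr3, the kinase Prkg1, and the phosphodiesterases Pde1a, Pde3a and Pde5a, out of 55414 genes in the count table. They were listed by name, and the list was chosen by a reading of earlier results of these data, in which the change of Prkg1 with the Has2 virus differed between male and female pairs. Values of that contrast are therefore a description. Where members past a threshold in it are counted, the count stands beside the share of all genes, and it supports nothing, since the choice of the list used the same values. All 9 passed the filter on low counts. Their identifiers are ENSMUSG00000033910 (Gucy1a1), ENSMUSG00000028005 (Gucy1b1), ENSMUSG00000027931 (Npr1), ENSMUSG00000028469 (Npr2), ENSMUSG00000022206 (Npr3), ENSMUSG00000052920 (Prkg1), ENSMUSG00000059173 (Pde1a), ENSMUSG00000041741 (Pde3a) and ENSMUSG00000053965 (Pde5a).

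cGMP is a second messenger made by soluble and by membrane-bound guanylyl cyclases. The soluble cyclase is a heterodimer of an alpha and a beta subunit and is switched on by nitric oxide, while the natriuretic peptide receptors carry the cyclase in their own intracellular part. cGMP activates the kinase encoded by Prkg1, and phosphodiesterases end the signal by hydrolysing the nucleotide. In cardiac fibroblasts this pathway is known as a brake on proliferation and on the change to matrix-producing myofibroblasts.

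The cells were infected at passage 2 with an adenovirus carrying Has2, which encodes hyaluronan synthase 2, or with an adenovirus carrying green fluorescent protein (GFP) as control, with 4 cultures each. The labels give strain C57BL/6J and wild type as genotype for every culture, whereas the protocol text names mice with a floxed Has2 gene (Has2fl/fl); ages are not given. Both groups had been starved of serum for 24 h, met the virus for 5 h and were collected 48 h later in medium with bFGF and TGFb at 20 ng/mL, so the controls are virus-exposed and growth-factor-stimulated cells too. Each group has male cultures as replicates 3 and 4, with female cultures as replicates 1 and 2. Libraries of the same number carry the same preparation name, and each number is treated as a pair. Male and female preparations also belong to differently lettered series, an effect of which cannot be told apart from that of sex.

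Libraries held 46981231 to 55795187 counts. Has2 averaged 6502 ± 2964 CPM (counts scaled to a common effective library size) with the Has2 virus and 18 ± 7.65 CPM with the GFP virus (SD, n = 4 each), and was 176 to 1142 times as high with its own virus within the pairs. With the Has2 virus it was at 9533 and 8406 CPM in the female and 3209 and 4860 CPM in the male libraries. The part of this difference in the male and female responses described below was not tested. The 8 fibroblast markers summed to 19568 to 33977 CPM with the Has2 virus and 20169 to 32286 CPM with the GFP virus. With the Has2 virus the sums were 253 to 990 CPM for 6 macrophage markers, 90.3 to 129 CPM for 8 markers of smooth muscle cells and pericytes, 25.2 to 47.8 CPM for 7 endothelial, 4.31 to 8.82 CPM for 5 cardiomyocyte and 2.25 to 5.56 CPM for 4 epicardial markers. With the GFP virus the same sums were 305 to 801, 80.5 to 130, 27.1 to 47.9, 4.76 to 8.96 and 2.00 to 4.75 CPM. No marker of these lists had 0 counts in all libraries. In these bulk samples fewer cells of a type and less RNA per cell cannot be told apart. Whether each culture had its own animal is not stated, and the p-values here measure only the spread between these samples, which may be technical.

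The promoters below are those of Prkg1 and of the 3 members whose levels over the 8 libraries were most like those of Prkg1 once the GC trend described further on was removed (Pde5a, Gucy1b1 and Gucy1a1). Prkg1 has 2 start sites in the table; as background, alternative first exons give the Ialpha and Ibeta forms of the kinase. Each window runs from 250 bases before to 50 bases after an annotated start, from RefSeq on GRCm38.p6, which is not the build of the counts. Capitals mark the GC box (GGGCGG) and the CCAAT box (CCAAT) on either strand.
Prkg1, chr19:31764984-31765283, minus strand: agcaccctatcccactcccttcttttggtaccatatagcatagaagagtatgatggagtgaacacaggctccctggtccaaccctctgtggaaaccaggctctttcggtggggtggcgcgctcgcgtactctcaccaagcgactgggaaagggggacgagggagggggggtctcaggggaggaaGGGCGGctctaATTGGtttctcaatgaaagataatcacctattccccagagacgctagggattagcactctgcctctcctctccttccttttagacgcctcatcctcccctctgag
Prkg1, chr19:31664321-31664620, minus strand: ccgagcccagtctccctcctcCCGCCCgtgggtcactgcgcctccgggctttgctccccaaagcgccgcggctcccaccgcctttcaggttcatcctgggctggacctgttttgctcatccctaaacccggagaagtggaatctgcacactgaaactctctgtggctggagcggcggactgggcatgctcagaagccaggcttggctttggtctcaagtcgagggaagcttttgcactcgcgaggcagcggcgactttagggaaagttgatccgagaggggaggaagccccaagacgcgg
Gucy1a1, chr3:82145601-82145900, minus strand: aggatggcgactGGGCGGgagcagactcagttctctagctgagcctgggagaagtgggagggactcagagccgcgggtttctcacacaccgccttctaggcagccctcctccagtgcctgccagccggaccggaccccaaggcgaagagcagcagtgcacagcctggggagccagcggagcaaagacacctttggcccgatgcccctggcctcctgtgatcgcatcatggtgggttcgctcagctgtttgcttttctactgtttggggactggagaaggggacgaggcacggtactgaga
Gucy1a1, chr3:82145024-82145323, minus strand: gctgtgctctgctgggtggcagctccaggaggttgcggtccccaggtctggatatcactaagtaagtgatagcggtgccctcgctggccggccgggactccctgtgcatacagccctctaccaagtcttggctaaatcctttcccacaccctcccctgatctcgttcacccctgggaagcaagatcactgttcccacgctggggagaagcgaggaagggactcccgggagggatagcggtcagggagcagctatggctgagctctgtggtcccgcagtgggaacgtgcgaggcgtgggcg
Gucy1b1, chr3:82074662-82074961, minus strand: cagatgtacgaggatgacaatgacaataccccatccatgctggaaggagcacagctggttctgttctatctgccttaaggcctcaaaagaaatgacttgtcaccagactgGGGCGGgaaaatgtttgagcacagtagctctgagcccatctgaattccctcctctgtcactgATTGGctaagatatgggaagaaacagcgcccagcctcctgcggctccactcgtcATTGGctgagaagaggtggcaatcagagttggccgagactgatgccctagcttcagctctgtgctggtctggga
Pde5a, chr3:122728908-122729207, plus strand: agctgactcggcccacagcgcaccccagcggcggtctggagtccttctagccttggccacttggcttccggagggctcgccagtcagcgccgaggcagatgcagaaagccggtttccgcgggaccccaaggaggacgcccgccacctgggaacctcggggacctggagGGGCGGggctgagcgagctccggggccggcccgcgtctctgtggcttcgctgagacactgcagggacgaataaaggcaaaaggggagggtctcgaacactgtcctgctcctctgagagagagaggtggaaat

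Of these 6 windows 5 hold a GC box, which 35.7% of 32851 promoter windows in the table hold. Nothing is read from this count, since the genes were picked by their likeness to Prkg1 in these same libraries. Prkg1 and Gucy1a1 also enter it more than once. The second window of Gucy1a1 holds none of the motifs searched. Of the 13 windows found for 8 members (Pde3a had none), 6 held a GC box and 6 a CCAAT box, which is present in 37.4% of all windows. The TATA box (TATAAA; 13.6% of all windows) occurred in 2 windows, both of Pde1a. A CRE (TGACGTCA; 1.79%), an AP-1 site (TGANTCA; 7.81%) and a CArG box (1.63%) were found in 0 of the 13. The motifs were searched on both strands, and a CArG box can overlap a CCAAT or TATA box. The windows of Prkg1 had a GC content of 55.3% and 62.3%, against 52.7% for the median window, although its longest transcript has a GC content of 41.5%. The windows of Gucy1a1 had 62.3% each, that of Gucy1b1 52.3% and that of Pde5a 66.3%. Gucy1a1 and Gucy1b1 are neighbours on chromosome 3, on the same strand and with 0 annotated genes between them.

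Expressed per kilobase of the longest transcript, so that genes can be compared, the 9 members ranged from 0.140 to 41.6 CPM per kb, and 3 of them were far more abundant than the rest. Over all 8 libraries Pde1a, a calmodulin-dependent phosphodiesterase, was at 41.6 ± 12.9 CPM per kb, the C-type natriuretic peptide receptor Npr2 at 30.8 ± 4.44 CPM per kb and the beta subunit gene Gucy1b1 at 23.2 ± 9.20 CPM per kb (SD, n = 8). These lie at percentiles 89.1, 85.7 and 81.8 of the level per kb of all genes tested. The alpha subunit gene Gucy1a1 followed at 5.02 ± 4.42, the cGMP-inhibited phosphodiesterase gene Pde3a at 3.06 ± 0.912, Prkg1 at 2.57 ± 1.57 and the cGMP-specific Pde5a at 1.72 ± 0.643 CPM per kb. The clearance receptor Npr3, which lacks a cyclase part, was at 0.543 ± 0.234 CPM per kb, and Npr1, the receptor of atrial and brain natriuretic peptides, at 0.140 ± 0.0233 CPM per kb. Pde1a and Npr2, Npr2 and Gucy1b1, and each neighbouring pair from Gucy1a1 down to Pde5a differ by less than the larger of their SDs.

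**Figure D1:**
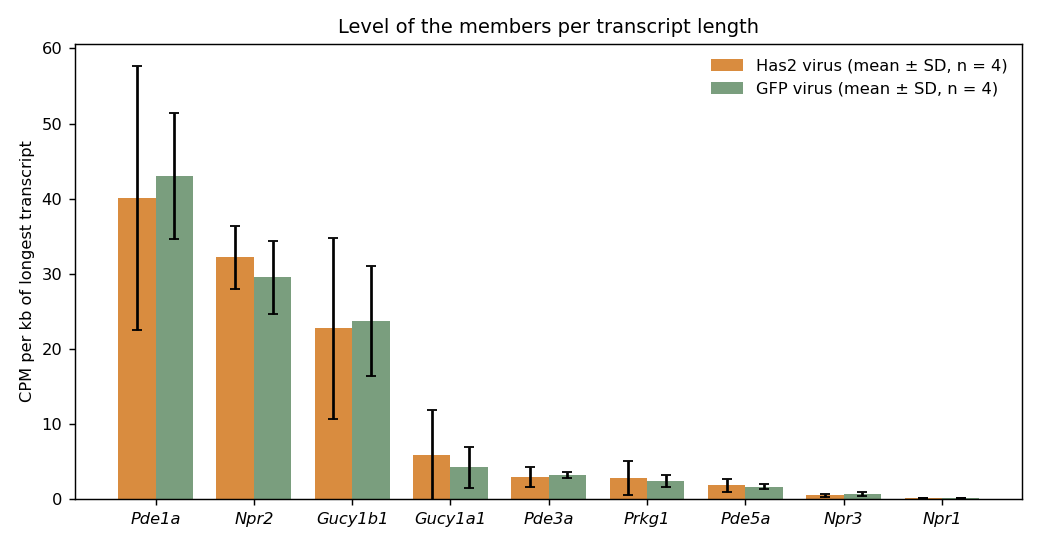
Mean level of each member in CPM per kb of the longest transcript, with the Has2 virus (left bar) and the GFP virus (right bar). Error bars are the SD of 4 libraries, and that of Gucy1a1 with the Has2 virus reaches below 0 and is cut at the axis; Pde1a, Npr2 and Gucy1b1 stand far above the other 6 members in both groups.

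Among the receptors, the natriuretic arm was almost wholly Npr2. Per unit of length Npr2 made up 97.6% to 98.9% of the Npr transcripts in the Has2 libraries and 95.8% to 98.2% in the GFP libraries. Npr2 was at 123, 133, 119 and 96.5 CPM in Has2 replicates 1, 2, 3 and 4, against 120, 127, 94.6 and 91.1 CPM in GFP replicates 1, 2, 3 and 4. It was the single member that was higher with the Has2 virus in all 4 pairs, as 9.16% of all genes tested were, but the groups overlap. Lower in all 4 pairs were 0 members, against 7.96% of all genes (either direction, 17.1%). The fold change of Npr2 was 0.12 on the log2 scale (SE 0.15; 95% interval -0.22 to 0.47), or 0.06 with the trend of transcript GC content and length removed.

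Npr1 had 24 to 36 counts per Has2 library and 23 to 34 per GFP library. That is 0.431 to 0.677 CPM with the Has2 virus and 0.504 to 0.673 CPM with the GFP virus, and the log2 fold change was -0.02 (SE 0.26; 95% interval -0.60 to 0.56), or -0.12 with the trend removed. A change within that interval cannot be told from none with these libraries. Npr3 was at 3.50, 5.13, 1.43 and 3.05 CPM in Has2 replicates 1 to 4, against 3.38, 4.8, 2.25 and 6.37 CPM in GFP replicates 1 to 4. GFP replicate 4 was the highest and Has2 replicate 3 the lowest of these. The log2 fold change of Npr3 was -0.36 (SE 0.42; 95% interval -1.29 to 0.58) and -0.05 without GFP replicate 4.

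The subunits of the soluble cyclase differed in abundance and in how widely they varied. Gucy1a1 was at 27.2, 67.6, 7.93 and 6.39 CPM in Has2 replicates 1 to 4, against 25.8, 35.5, 9.59 and 9.26 CPM in GFP replicates 1 to 4. Both female cultures stood above both male cultures in each group, and the highest library was 10.6 times the lowest, the widest span of the 9 members. The fold change of Gucy1a1 was 0.45 on the log2 scale (SE 0.74, 95% interval -1.22 to 2.12), and -0.53 without Has2 replicate 2. With the replicate pairs as a block it was 0.06 (SE 0.23, 95% interval -0.50 to 0.62).

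Gucy1b1 was at 90.8, 119, 46.2 and 36.5 CPM in Has2 replicates 1 to 4, against 95.1, 97.1, 64.5 and 49.2 CPM in GFP replicates 1 to 4. The same order of females above males held, with a narrower span of 3.26 times and overlapping groups. The fold change of Gucy1b1 was -0.07 on the log2 scale (SE 0.38; 95% interval -0.91 to 0.78); it was -0.40 without Has2 replicate 2 and 0.08 with the trend removed.

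Per unit of length the alpha subunit transcript was the scarcer one in every library. The ratio of Gucy1a1 to Gucy1b1 was 0.208 ± 0.128 with the Has2 virus and 0.167 ± 0.0657 with the GFP virus (SD, n = 4 each). It was 0.205, 0.389, 0.117 and 0.120 in Has2 replicates 1 to 4, against 0.186, 0.250, 0.102 and 0.129 in GFP replicates 1 to 4. The ratio was thus above 0.18 in the 4 female libraries and below 0.13 in the 4 male ones. The other alpha subunit gene, Gucy1a2, was at 0.204 to 1.04 CPM with the Has2 virus and 0.486 to 0.866 CPM with the GFP virus.

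**Figure D2:**
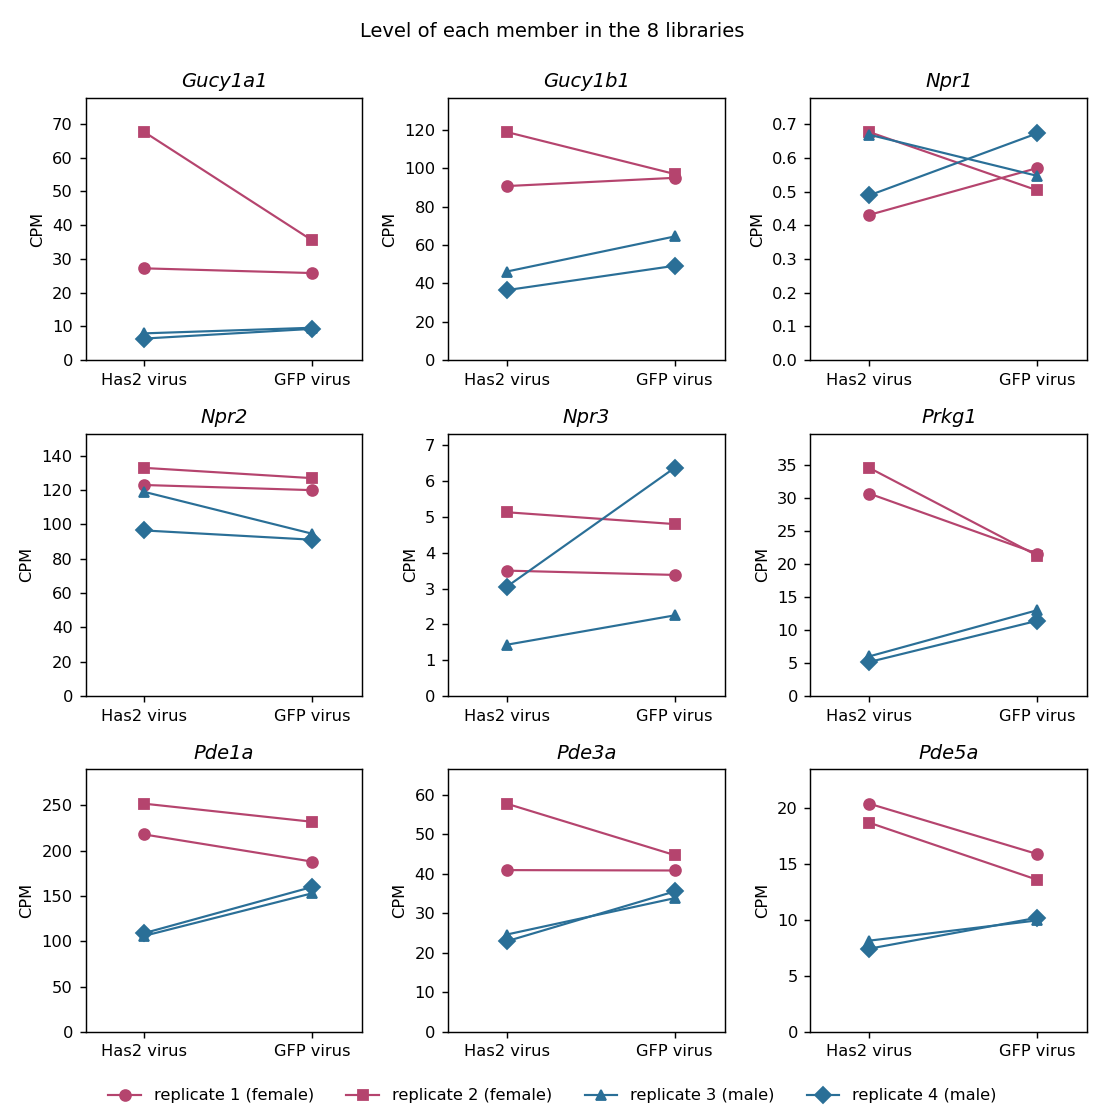
CPM of each member in the Has2 library (left) and the GFP library (right) of each pair, with lines joining libraries of the same replicate number and colours for sex. Lines of Prkg1 and Pde5a from female pairs stand higher at the Has2 virus and those from male pairs lower, whereas Npr2 lies slightly higher at the Has2 virus in all 4 pairs.

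Prkg1, the kinase through which most cGMP effects in smooth muscle and stromal cells run, had opposite differences in the male and the female pairs. It was at 30.7, 34.6, 6.00 and 5.15 CPM in Has2 replicates 1 to 4, against 21.6, 21.3, 13 and 11.4 CPM in GFP replicates 1 to 4. Its Has2 libraries thus hold both the 2 highest and the 2 lowest values, and all GFP libraries lie between them. In the male pairs the Has2 library had 0.460 and 0.450 times the GFP level, and in the female pairs 1.42 and 1.63 times. These pair changes lie at percentiles 3.98 and 3.35 of all genes tested in male and at percentiles 97.8 and 98.8 in the female pairs. Over both sexes the log2 fold change was 0.18 (SE 0.59; 95% interval -1.15 to 1.52), and -0.24 with the replicate block (SE 0.36).

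Pde5a, which degrades cGMP with high selectivity, followed the same order at a smaller size. It was at 20.4, 18.7, 8.15 and 7.43 CPM in Has2 replicates 1 to 4, against 15.9, 13.6, 9.96 and 10.2 CPM in GFP replicates 1 to 4. As with Prkg1, every GFP value lay between the female and the male Has2 values. The fold change of Pde5a was 0.14 on the log2 scale (SE 0.35; 95% interval -0.65 to 0.92), 0.09 with the trend removed and -0.10 without Has2 replicate 1.

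Pde1a was at 218, 252, 106 and 109 CPM in Has2 replicates 1 to 4, against 188, 232, 153 and 160 CPM in GFP replicates 1 to 4. The male pairs had 0.689 and 0.680 times the GFP level and the female pairs 1.16 and 1.09 times. The fold change of Pde1a was -0.10 on the log2 scale (SE 0.29; 95% interval -0.76 to 0.56), and 0.09 with the trend removed.

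Pde3a, whose product hydrolyses cAMP and is inhibited by cGMP, was at 40.9, 57.7, 24.6 and 22.9 CPM in Has2 replicates 1 to 4, against 40.8, 44.7, 33.8 and 35.5 CPM in GFP replicates 1 to 4. Both male Has2 libraries lay below all GFP libraries. The fold change of Pde3a was -0.08 on the log2 scale (SE 0.28; 95% interval -0.72 to 0.55), and 0.01 with the trend removed.

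Over all 8 libraries 0 of the 9 members had an adjusted p under 0.05 by the quasi-likelihood test of edgeR, where 0.0066% of the 15150 genes tested did, namely Has2 alone. The adjusted p was 1 for each member, 0 of the 9 had an unadjusted p under 0.05 (2.56% of all genes), and DESeq2 and limma-voom also called 0. The groups overlapped in all 9 members, whereas they did not in 2.38% of all genes (Has2 virus lower, 1.51%). The median log2 fold change was -0.02 over the members and -0.01 over all genes tested, with 4 positive and 5 negative values among the members. The median standard error was 0.35 for the members and 0.23 for all genes, so the comparison over both sexes is less precise for these genes than for most. With the replicate block it was 0.18 for the members and 0.14 for all genes. This blocked fit gave log2 fold changes of 0.06 for Gucy1a1, -0.17 for Gucy1b1, -0.03 for Npr1, 0.13 for Npr2 and -0.38 for Npr3. For Prkg1, Pde1a, Pde3a and Pde5a it gave -0.24, -0.19, -0.18 and 0.02. The members called were again 0 of 9, where 0.0066% of all genes were called. At an unadjusted p under 0.05 it was 0 members and 7.49% of all genes. With block and trend removal together 0 members were called, or had an unadjusted p under 0.05, where 0.0132% and 10.5% of all genes did. A two-sided exact permutation test on log2 CPM had a p of 0.40 for Npr2 to 0.971 for Gucy1a1, where 4 libraries against 4 can reach 0.0286.

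Within the sexes the members parted. In 6 of the 9 (Prkg1, Gucy1a1, Npr3, Pde5a, Pde1a and Pde3a) both male pairs were lower and both female pairs higher with the Has2 virus, as in 15.9% of all genes tested; the reverse was found in 0 members and 18.6% of all genes. The members' median log2 change was -0.45 and -0.50 in male replicates 3 and 4, against 0.05 and 0.29 in female replicates 1 and 2, while the median of all genes stayed between -0.01 and 0.03. Lower with the Has2 virus were 7 and 8 members in male and 2 and 0 in female pairs, where 46.5% and 48.1%, and 50.2% and 52.0%, of all genes were. In the blocked fit the difference, male minus female, was below 0 and past the threshold for 7 members (these 6 and Gucy1b1) and for 18% of all genes (either direction, 29.5%; above 0, 11.5% of all genes and 0 members), and without the block 0 members and 0% of all genes did (13.3% of all genes at an unadjusted p under 0.05). Nothing is read from these counts, since the list was chosen on this contrast.

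Transcript GC content went with these changes. The 7 members with a GC content of 41.2% (Pde1a) to 46.8% (Pde5a) had lower values with the Has2 virus in both male pairs, while Npr2 (55.0%) and Npr1 (57.4%) did so in 0 and 1 of them. Across the 9 members, Spearman's rho between the pair change and GC content was 0.88 and 0.73 for the male and -0.42 and -0.18 for the female pairs. Over all 15150 genes, which share the same libraries, rho was 0.68 and 0.66 for the male and -0.23 and -0.18 for the female pairs. Transcripts of low GC content were thus generally lower with the Has2 virus in the male cultures, and the members with low GC content lie among them.

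**Figure D3:**
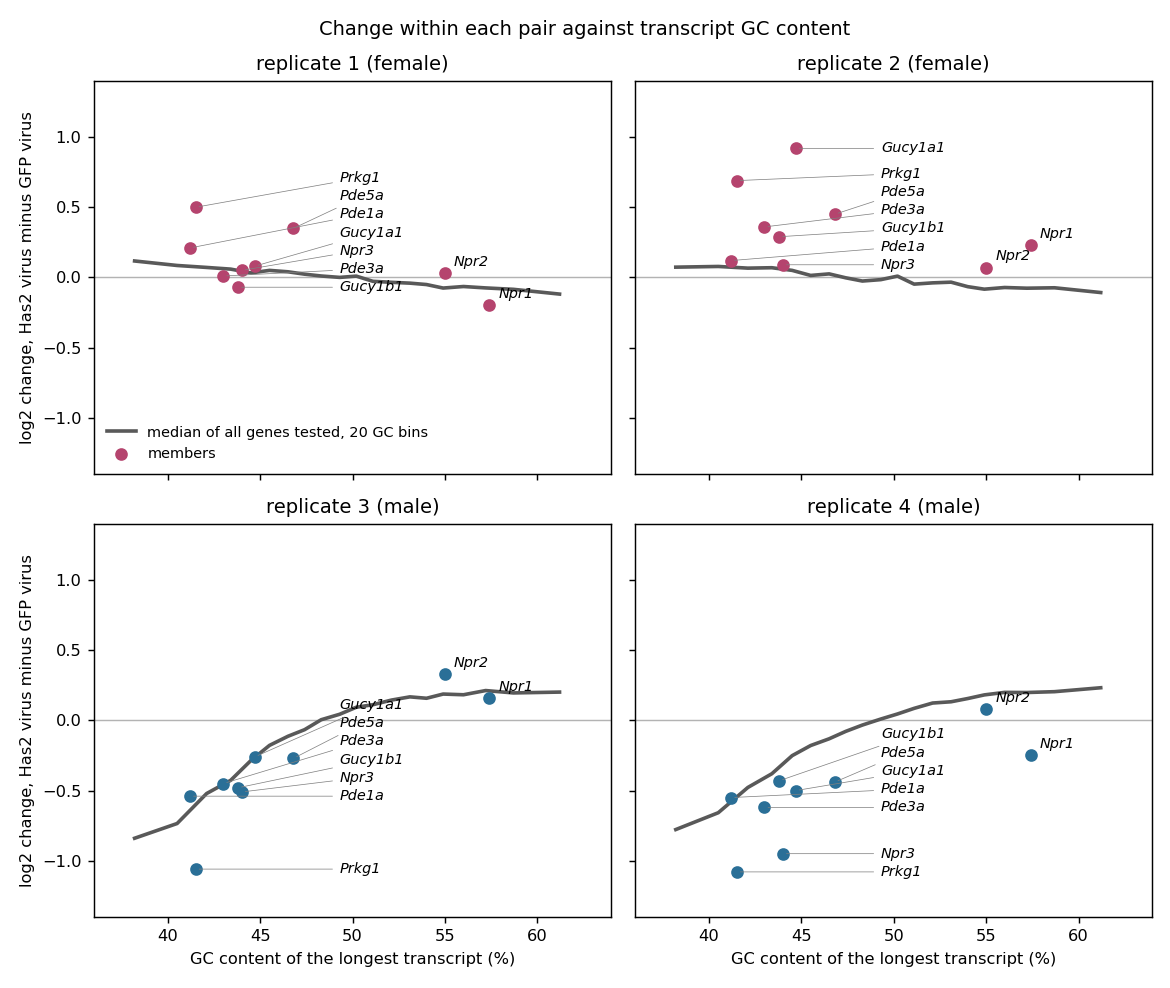
Log2 change, Has2 virus minus GFP virus, within each pair against the GC content of the longest transcript. Points are the 9 members and the line is the median of all genes tested in 20 bins of GC content. In the male pairs the line runs below 0 at low GC content, and Prkg1 lies under it in both. In the pair of replicate 4 Npr3 and Npr1 also lie well under the line. In the female pairs Prkg1 lies above it.

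To see what remains beside this relation, a smooth trend of GC content and log2 transcript length over all genes was taken from every library. For Prkg1 the trend amounted to -0.65 and -0.69 in the male pairs, where the log2 change was -1.06 and -1.08, and to 0.14 and 0.26 in the female pairs, where it was 0.50 and 0.69. The remainder was -0.41 and -0.39 in male and 0.36 and 0.43 in female pairs, so that Prkg1 kept its direction in each pair at less than 0.5 on the log2 scale. Pde5a also kept its directions, with remainders of -0.10 and -0.13 in the male and 0.24 and 0.19 in the female pairs. These are 2 of the 9 members, where 10.6% of all genes showed both male remainders below and both female remainders above 0.

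Pde1a and Pde3a came to lie near 0 in the male pairs. Their male remainders were 0.07 and 0.01 for Pde1a and 0.09 and 0.04 for Pde3a, where the log2 changes had been -0.54 and -0.55, and -0.45 and -0.62. The difference of the response in the blocked fit, male minus female, was 0.04 (SE 0.10) for Pde1a and 0.21 (SE 0.11) for Pde3a with the trend removed, against -0.71 and -0.73 before. Gucy1b1 had male remainders of -0.10 and -0.10 and female ones of -0.08 and 0.30. Npr3 had male remainders of -0.07 and -0.43 and female ones of -0.07 and -0.16. Those of Npr1 were -0.05 and -0.39 in the male and -0.15 and 0.21 in the female pairs. Npr2 had 0.14 and -0.06 in the male and 0.09 and 0.09 in the female pairs. For Gucy1a1 the one large remainder was 0.80 in the pair of replicate 2, at a change of 0.92 that lies at percentile 99.8 of all genes; its other remainders were 0.02, 0.07 and -0.14. With the trend removed the difference in the blocked fit, male minus female, was -0.78 (SE 0.12) for Prkg1, the gene on which the list was chosen. It was below 0 and past the threshold for that 1 member and for 4.48% of all genes (either direction, 10.4%; above 0, 5.89% of all genes and 0 members), and nothing is read from this count.

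**Figure D4:**
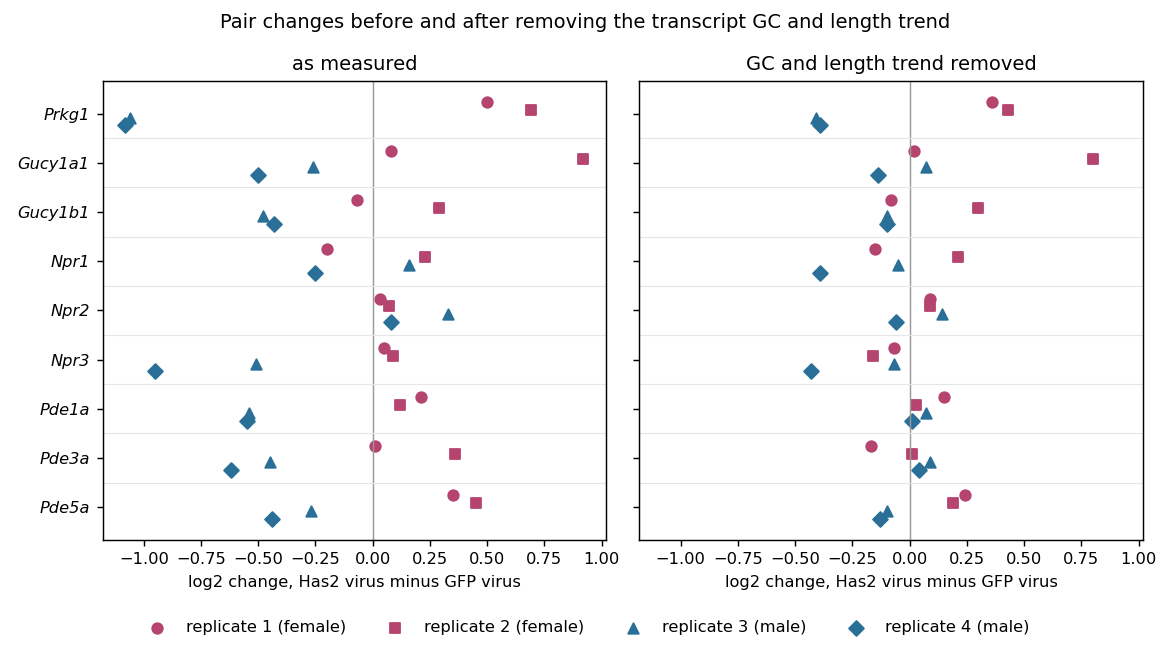
Log2 change, Has2 virus minus GFP virus, of each member in the 4 pairs, as measured (left) and with the GC and length trend over all genes removed (right), on the same scale. Symbols give the replicate and colours the sex; Prkg1 remains split by sex at about 0.4 on either side of 0, whereas Pde1a and Pde3a gather near 0.

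As a further description, fitted within 1 sex after seeing the data, with 2 libraries a group, the male libraries gave log2 fold changes of -1.14 (SE 0.18) for Prkg1, -0.55 (SE 0.12) for Pde1a and -0.55 (SE 0.13) for Pde3a. These 3 members and 9.23% of all genes were lower past the threshold (either direction, 9.25%; at an unadjusted p under 0.05, 4 members and 19.9% of all genes), but the male response is part of the contrast on which the list was chosen, so this is no support for it. With the trend removed the values were -0.38 for Prkg1, 0.13 for Pde1a and 0.12 for Pde3a, and 0 members were called, where 0.00654% of all genes were. In the female libraries the values were 0.62 (SE 0.19) for Prkg1, 0.18 (SE 0.20) for Pde1a and 0.22 (SE 0.23) for Pde3a, or 0.40, 0.07 and -0.07 with the trend removed; edgeR called 0 members and 0% of all genes there, not even Has2 (at an unadjusted p under 0.05, 1 member and 1.38% of all genes).

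With the GFP virus alone, 6 members had lower levels in male than in female cultures at an unadjusted p under 0.05, though none passed adjustment by edgeR. In this comparison, chosen after seeing the data, Gucy1a1 was at 9.59 and 9.26 CPM in the male cultures and 25.8 and 35.5 CPM in the female ones (log2 difference, male minus female, -1.70; SE 0.40; edgeR adjusted p = 0.595). Prkg1 was at 13 and 11.4 CPM in males and 21.6 and 21.3 CPM in females (-0.81; SE 0.16; edgeR adjusted p = 0.393), and Gucy1b1 at -0.76 (SE 0.20; edgeR adjusted p = 0.774). Smaller differences of -0.55 for Pde5a, -0.42 for Pde1a and -0.41 for Npr2 pointed the same way. By edgeR 0 of the 9 members passed, where 0.0396% of all genes did (0.0198% lower in males). At an unadjusted p under 0.05, 6 were lower in males, as were 3.30% of all genes (either direction, 5.14%), and DESeq2 called Prkg1 and Gucy1a1. These counts support nothing, since the contrast on which the list was chosen uses the same GFP libraries. With the trend removed the differences of Gucy1a1 and Prkg1 were -1.75 and -0.83, and 0 members were called, where 0.0528% of all genes were (0.0198% lower in males). Of the 6 marker sums 3 were also lower in male than in female GFP libraries without overlap, with 2 libraries of each sex. The share of all genes without overlap in this comparison is not given here, so no difference in cell types is read from this count. The fibroblast markers summed to 20169 to 20646 CPM in male and 26810 to 32286 CPM in female GFP libraries, those of smooth muscle cells and pericytes to 80.5 to 93.4 CPM in male and 100 to 130 CPM in female ones, and those of cardiomyocytes to 4.76 to 5.74 CPM in male and 6.73 to 8.96 CPM in female ones. Few genes carried these 3 sums. The largest means with the GFP virus were 9081, 6465 and 6268 CPM for Col3a1, Col1a2 and Col1a1. For smooth muscle cells and pericytes they were 57.4 and 34.9 CPM for Notch3 and Mcam, and for cardiomyocytes 5.8 CPM for Tnnt2. Myh6, Actn2 and Ryr2 had 5, 6 and 19 counts over all 8 libraries. The macrophage, endothelial and epicardial sums overlapped between the sexes. The part of any of these in the differences was not tested.

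Over the 8 libraries Prkg1, Gucy1a1, Gucy1b1, Pde1a, Pde3a and Pde5a had like profiles, with r of 0.88 to 0.97 between any 2 of them. Pearson's r of log2 CPM, over libraries that share preparations in pairs, was 0.97 between Prkg1 and Pde5a, 0.97 between Prkg1 and Pde1a, 0.96 between Prkg1 and Gucy1b1, and 0.96 between Gucy1a1 and Gucy1b1. With the trend removed r was 0.98 between Prkg1 and Pde5a and 0.97 between Prkg1 and Gucy1b1, but 0.53 between Prkg1 and Pde3a, against 0.95 before. Between Npr2 and Prkg1 r was 0.93 with the trend removed, against 0.63 before. Npr1 had no r above 0.08 with any other member before, and none above 0.33 after. The share of all genes with r as high is not given here. The list was chosen on the male and female contrast of Prkg1 in these same libraries, so nothing is read from these values.

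The genes most like Prkg1 over the 8 libraries, among 10303 genes with a mean of at least 5 CPM, were Itgb8 (r = 0.996), Ehbp1 (0.994), Plod2 (0.993), Lrp6 (0.991) and Tcf7l2 (0.990). Itgb8 encodes an integrin subunit, Plod2 a collagen lysyl hydroxylase, Lrp6 a WNT co-receptor and Tcf7l2 a transcription factor of that pathway. Their GC contents were 40.4% to 47.3%, and r with the trend removed was 0.942 for Plod2 to 0.986 for Tcf7l2.

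The wider pathway was read from 6 further lists of 68 genes, of which 45 passed the filter. By edgeR 0 of the 45 were called with or without the replicate block. At an unadjusted p under 0.05 it was 1 of them without the block, where 2.56% of all genes were, and 5 with it (Nos1, Rgs2, Zyx, Pde4a and Prkg2), where 7.49% were. Of the 45, 26 had positive and 19 negative log2 fold changes, and their median was 0.02, against -0.01 for all genes tested.

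The gene with the smallest p was Nos1, the neuronal nitric oxide synthase. It was at 2.77, 2.28, 2.12 and 1.79 CPM in Has2 replicates 1 to 4, against 1.52, 1.45, 1.3 and 1.35 CPM in GFP replicates 1 to 4. The groups did not overlap, with Has2 higher, as in 0.871% of all genes, and Nos1 was higher in all 4 pairs (log2 fold change 0.67, SE 0.21; adjusted p of 1 by edgeR, or 0.648 when blocked). The endothelial form Nos3 was at 0.349 to 1.60 CPM with the Has2 virus and 0.701 to 1.80 CPM with the GFP virus, and the inducible Nos2 at 0.260 to 0.593 CPM with the Has2 virus and 0.121 to 0.465 CPM with the GFP virus. The other genes of nitric oxide synthesis of smallest p were Pts (log2 fold change -0.14, SE 0.16, but 0.28 with the trend removed) and Ddah1 (0.13, SE 0.25). They act in making the cofactor tetrahydrobiopterin and in breaking down the synthase inhibitor dimethylarginine. Pts was lower and Ddah1, like Nos1, higher in all 4 pairs. Of all genes, 7.96% were lower and 9.16% higher in all 4 pairs.

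Of the natriuretic peptides, Nppc, the ligand of Npr2, was at 0.570 to 2.28 CPM with the Has2 virus and 0.871 to 2.67 CPM with the GFP virus (log2 fold change -0.07, SE 0.48, but 0.08 with the trend removed). Nppa had at most 1 count and Nppb at most 4 counts per library, which kept them out of the fit. The protease genes Mme, for neprilysin, which degrades the peptides, and Furin, for a proprotein convertase, had log2 fold changes of -0.63 (SE 0.47) and 0.06 (SE 0.11), or -0.27 and -0.04 with the trend removed.

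Prkg2, the second cGMP-dependent kinase, was at 8.70, 2.34, 3.70 and 7.84 CPM in Has2 replicates 1 to 4, against 7.50, 4.03, 11.2 and 16.5 CPM in GFP replicates 1 to 4. It was lower in 3 of 4 pairs with overlapping groups (log2 fold change -0.80, SE 0.50; edgeR adjusted p = 1). Among 14 other phosphodiesterases tested 8 values were positive and 6 negative, with a median of 0.01. Those of smallest p were the cAMP-specific Pde4a (0.27, SE 0.13), Pde3b (-0.33, SE 0.25), Pde1c (-0.34, SE 0.34) and Pde6h (0.38, SE 0.42). Pde4a was higher in 4 of 4 pairs, as 9.16% of all genes were. With the trend removed they were at 0.18 for Pde4a, -0.22 for Pde3b, -0.15 for Pde1c and 0.43 for Pde6h.

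Among 15 tested targets and partners of the kinase 11 values were positive and 4 negative, with a median of 0.09. Zyx, for the focal adhesion protein zyxin, was at 0.24 on the log2 scale (SE 0.15) and was higher in 4 of 4 pairs. So were Gtf2ird1 and others of this list, and 9.16% of all genes. Rgs2, a G protein regulator that the kinase phosphorylates, was at -0.55 (SE 0.37) and was lower in 4 of 4 pairs, as 7.96% of all genes were. Its levels were 12.5, 5.64, 9.36 and 14.8 CPM in Has2 replicates 1 to 4, against 16.2, 7.03, 17.6 and 21.1 CPM in GFP replicates 1 to 4, so the groups overlap, and its value was -0.30 with the trend removed. Ppp1r12b, a myosin phosphatase subunit, and Gtf2ird1 had log2 fold changes of 0.20 (SE 0.14) and 0.20 (SE 0.15), or 0.11 and 0.12 with the trend removed. The cGMP exporters Abcc4 and Abcc5 and the channel subunit Cngb1 had log2 fold changes of 0.16 (SE 0.15), 0.08 (SE 0.21) and -0.07 (SE 0.21), or 0.13, 0.01 and -0.16 with the trend removed. The edgeR adjusted p was 1 for each of these genes.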

How the data were processed

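Poly(A) RNA was sequenced after a stranded library kit, per the labels' protocols. The deposited values are raw counts for each Ensembl gene in 8 libraries; per the submitters' processing notes, FastQC 0.10.1 and HTSeq 0.10.0 were used on mm39. For the aligner, the annotation release and the strandedness of counting the answer is "not given in the sources used here", so that reads of overlapping or antisense genes may be divided in an unknown way.

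Symbols, transcript lengths and GC content came from GENCODE M21, an annotation of an older build, by Ensembl identifier: 52081 of 55414 genes matched a symbol (the other 3333 held 0.405% to 0.871% of counts), and 99.8% of the 15150 genes tested had a GC content. Genes were tested with edgeR 4.0.16 (R 4.3.3): default expression filter, TMM scaling, quasi-likelihood F-test, group as the term (for the sexes, group by sex), Benjamini-Hochberg adjustment over all genes and a threshold of 0.05. CPM use effective library sizes, and log2 levels a pseudocount of 0.5 CPM. The trend was a spline of GC content and log2 length with 5 degrees of freedom each, entered as offsets in the fits. DESeq2 1.42.0, limma 3.58.1, RLE scaling, library totals, no filter and leaving out each library were alternatives. The fits were tested on simulated data.

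Libraries of the same number carry the same preparation name, and the pairing rests on that name. Their deviations from their group's mean correlate (0.64, 0.63, 0.57 and 0.43). These values cannot decide the pairing, since that mean spans both sexes and libraries of different numbers were not correlated. Libraries of a group differed by more than sampling noise (chi-square per degree of freedom 41.8 to 333). A 95% interval of the fold change lay within 2-fold either way for 11394 genes.

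The members, lists and tests were chosen with earlier results of these data known; fits within 1 sex and the comparison of male with female GFP libraries were added after seeing the data. Named are all members, up to 4 tested genes of smallest p per wider list, the 5 genes most like Prkg1 and Has2; Nos3, Nppa and Nppb were added after their values were seen.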

Additional observations from a re-analysis of the deposited data

Results flagged for a closer look

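For 7 members the difference between the responses of male and female pairs to the Has2 virus passed the threshold in the fit with the replicate block, as it did for 29.5% of all genes (18% below 0). The list was chosen on this contrast, so these values are a description and no evidence of a difference. The differences of the log2 fold change, male minus female, were -1.74 for Prkg1, -0.91 for Gucy1a1, -0.57 for Gucy1b1, -0.96 for Npr3, -0.78 for Pde5a, -0.71 for Pde1a and -0.73 for Pde3a. With the GC and length trend removed they were -0.78, -0.45, -0.16, -0.24, -0.32, 0.04 and 0.21 in the same order of genes. The share of mitochondrially encoded transcripts moved with the sexes too: in the male pairs it was 0.417% and 0.603% with the Has2 virus against 0.702% and 0.940% with the GFP virus, and in the female pairs 1.88% and 0.909% against 1.02% and 0.662%. Its part in the result was not tested. In 0 of 18 sets of values from 4 libraries did 1 library stand apart from the others of its group by Dixon's criterion. This does not show that no single library matters. Without Has2 replicate 2 the log2 fold change of Gucy1a1 was -0.53, against 0.45 with all libraries.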

How the results depend on the processing

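For the Has2 virus against the GFP virus, edgeR called 1 gene and 0 members, and members stayed at 0 with the replicate block, the trend removed, RLE scaling, library totals, no filter, DESeq2, limma-voom and each library left out. The genes called were 2 with the replicate block and the trend removed, 7 by DESeq2 and 61 by DESeq2 with the replicate block. Signs turned for Prkg1 with the replicate block (-0.24), by DESeq2 with the block (-0.24) and by limma-voom (-0.26). With the trend removed they turned for Gucy1b1 (0.08), Pde1a (0.09) and Pde3a (0.01), and with the block as well for Gucy1b1 (0.03) and Pde1a (0.10). Within male libraries 1415 genes and 3 members were called and Prkg1 (-1.14), Gucy1a1 (-0.40) and Pde5a (-0.38) turned; with the trend removed there, Prkg1 (-0.38), Gucy1a1 (-0.01), Pde5a (-0.11), Pde1a (0.13) and Pde3a (0.12) turned. Within female libraries 0 genes were called and Gucy1b1 (0.14), Npr1 (0.06), Npr3 (0.09), Pde1a (0.18) and Pde3a (0.22) turned; with the trend removed there, 0 genes were called and Gucy1b1 (0.15), Npr1 (0.06) and Pde1a (0.07) turned. Leaving out each library in turn gave 1 gene throughout and log2 fold changes of -0.27 to 0.50 for Prkg1, -0.53 to 0.88 for Gucy1a1, -0.40 to 0.16 for Gucy1b1, -0.11 to 0.11 for Npr1, 0.06 to 0.21 for Npr2, -0.66 to -0.05 for Npr3, -0.10 to 0.34 for Pde5a, -0.35 to 0.07 for Pde1a and -0.39 to 0.09 for Pde3a. For the difference between male and female pairs, 0 genes and 0 members passed without the block, 4470 genes and 7 members with the replicate block, 1571 genes and 1 member with block and trend removed, and 675 genes and 1 member by DESeq2. The sign turned with the trend removed for Npr2 (-0.08 with the block and without), Pde1a (0.04 with, 0.06 without) and Pde3a (0.21 with, 0.19 without). Leaving out a library gave 0 to 4 genes (4 without GFP replicate 2), 0 members, and differences of -1.85 to -1.63 for Prkg1, -1.56 to -0.22 for Gucy1a1 (-0.22 without Has2 replicate 2, against -1.03 with all libraries), -0.78 to -0.37 for Gucy1b1, -0.42 to 0.25 for Npr1, 0.01 to 0.31 for Npr2, -1.66 to -0.09 for Npr3 (-0.09 without GFP replicate 4), -0.96 to -0.67 for Pde5a, -0.87 to -0.60 for Pde1a and -1 to -0.48 for Pde3a (-0.48 without Has2 replicate 2). For male against female GFP libraries 6 genes and 0 members passed; it was 20 genes without a filter, 83 genes and 2 members by DESeq2, and 0 to 19 genes (19 without GFP replicate 2) with a library left out, where Npr3 ranged from -0.85 to 0.71. Where these values changed, the cause was not tested. Npr1 had the fewest counts of the members, at 23 to 36 per library, though its SE of 0.26 for the virus comparison was below the members' median of 0.35.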
